A study of Mus musculus with 12 samples.

Results

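The aryl hydrocarbon receptor (AHR) gene, its dimer partner and 7 genes known as its targets were followed in mouse bone marrow cells cultured with indole-3-propionic acid (IPA), a tryptophan metabolite made by gut bacteria. They are Ahr, Arnt, Ahrr, Tiparp, Cyp1b1, Cyp1a1, Nqo1, Ugt1a6a and Ugt1a6b, taken by symbol from the table of counts, and make up 9 of its 54532 genes. The rule reads symbols alone, and the genes were picked with earlier results of these data known. The libraries came from bone marrow of wild-type C57BL/6 mice, and every group grew in medium with GM-CSF and IL-6, 2 cytokines that drive myeloid cells. The vehicle group received 0.1% DMSO, and the treated groups received 10 µM or 50 µM IPA, renewed at the medium change on day 3, before harvest on day 5. There were 4 libraries in each of the 3 groups. The labels give neither age nor sex, and the study's methods describe its mice as young adult females. Whether the libraries of a group came from separate mice or cultures was not given, so p-values measure the spread between these libraries, which may be technical. The culture was a mixture of cell types, and the study describes the higher dose as mildly lowering cell viability, which these libraries do not measure.

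AHR is a transcription factor that waits in the cytoplasm, bound to chaperones such as HSP90 and p23, until a planar aromatic ligand, such as dioxin or some indoles made from tryptophan, enters its pocket. It then moves to the nucleus, pairs with ARNT and binds DNA elements with the core letters GCGTG, where it turns on genes of drug metabolism as well as 2 genes that restrain it, Ahrr and Tiparp. In myeloid cells it is known for its part in differentiation and in the response to microbial tryptophan metabolites.

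At 50 µM IPA, 6 of the 9 genes rose against vehicle and none fell, where 7.00% of all genes tested rose and 6.50% fell. Without Cyp1a1, which entered the test only through its 50 µM libraries and so was favoured to differ, the count was 5 of 8. Cyp1b1, which encodes a cytochrome P450 that oxidizes steroids and polycyclic aromatics, rose from 12.0 ± 2.8 to 124 ± 20 CPM (counts scaled to the library total, here with TMM, mean ± SD, n = 4), or 10.4-fold. Nqo1, Tiparp, Ahrr and Ahr rose between 1.20-fold and 1.59-fold. Cyp1a1, the classical AHR target, rose from near the limit of detection to at most 29 counts in a library. Arnt, Ugt1a6a and Ugt1a6b did not pass the test. At 10 µM IPA no gene of the 9 passed it in either direction, and only 0.410% of all genes did.

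The core letters were looked for, on both strands, in the 250 bases before the start of each gene, in promoter sequences from RefSeq on GRCm38.p6. The table used held 7 of the 9 genes, without Ahr and Ugt1a6b. Of these 7, 5 held the core at least once, and it stood in 28.2% of 32851 mouse promoters of the same length. Promoters of the 5 genes that rose and were in the table are printed below with that of Arnt, which did not pass the test but holds the core, so that the letters can be set beside the measurements. Each is written 5′ to 3′ on the strand of its gene and ends at the base before the start, and capitals mark GCGTG or, on the opposite strand, CACGC.
Cyp1b1, chr17:79715062-79715311, minus strand: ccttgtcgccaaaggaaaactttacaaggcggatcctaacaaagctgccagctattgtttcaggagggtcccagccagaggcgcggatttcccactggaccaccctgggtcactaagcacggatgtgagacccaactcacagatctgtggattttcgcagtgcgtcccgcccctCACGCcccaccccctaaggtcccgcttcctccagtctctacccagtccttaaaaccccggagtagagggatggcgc
Cyp1a1, chr9:57697363-57697612, plus strand: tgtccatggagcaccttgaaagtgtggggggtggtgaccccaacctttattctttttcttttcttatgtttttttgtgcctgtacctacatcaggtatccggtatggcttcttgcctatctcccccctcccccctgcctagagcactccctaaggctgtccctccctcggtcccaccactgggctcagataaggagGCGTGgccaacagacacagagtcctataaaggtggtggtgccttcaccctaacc
Ahrr, chr13:74292332-74292581, minus strand: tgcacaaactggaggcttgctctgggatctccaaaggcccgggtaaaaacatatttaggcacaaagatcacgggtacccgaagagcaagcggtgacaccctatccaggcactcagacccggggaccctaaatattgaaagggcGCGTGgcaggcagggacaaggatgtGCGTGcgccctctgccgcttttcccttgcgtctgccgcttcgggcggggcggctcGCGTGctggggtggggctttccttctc
Tiparp, chr3:65528197-65528446, plus strand: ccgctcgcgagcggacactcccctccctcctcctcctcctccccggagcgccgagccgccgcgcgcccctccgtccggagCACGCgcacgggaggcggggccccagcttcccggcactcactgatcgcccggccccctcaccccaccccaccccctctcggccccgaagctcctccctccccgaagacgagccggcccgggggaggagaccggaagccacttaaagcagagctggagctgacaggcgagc
Nqo1, chr8:107403206-107403455, minus strand: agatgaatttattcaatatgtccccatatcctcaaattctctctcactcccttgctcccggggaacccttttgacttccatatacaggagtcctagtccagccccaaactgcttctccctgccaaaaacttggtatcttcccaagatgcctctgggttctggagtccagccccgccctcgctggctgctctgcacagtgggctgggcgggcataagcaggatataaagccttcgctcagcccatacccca
Arnt, chr3:95434140-95434389, plus strand: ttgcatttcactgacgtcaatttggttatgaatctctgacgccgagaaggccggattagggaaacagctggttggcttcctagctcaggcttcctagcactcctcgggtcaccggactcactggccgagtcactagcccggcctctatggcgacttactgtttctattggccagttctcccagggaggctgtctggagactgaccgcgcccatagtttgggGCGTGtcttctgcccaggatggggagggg

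Ahrr held the core 3 times, at 107 to 103, 82 to 78 and 27 to 23 bases before its start, and as many or more matches stood in 2.77% of all promoters. The match nearest its start was also the only one among the 7 genes that lay within the longer element TNGCGTG (reverse CACGCNA), which 4.1% of promoters held. Cyp1b1 held the core once on the opposite strand, at 76 to 72 bases, and Tiparp once on the opposite strand, at 170 to 166. Cyp1a1 held it once at 54 to 50 bases and Arnt once at 29 to 25. Nqo1 and Ugt1a6a held none, which says only that these letters are not in this window. The core was thus present in the window of Arnt, whose level did not pass the test, and absent from that of Nqo1, which rose. The starts used here for Cyp1a1, Tiparp, Arnt and Nqo1 lie inside the genes as GENCODE draws them. For Arnt and Nqo1 the offset is a few bases and for Tiparp a small part of the window, but for Cyp1a1 it is several kilobases, so its whole window lies within the gene interval given below. These matches are a description of the letters and were not tested for binding.

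The comparisons used totals of 20451312 to 28038612 counts per library, 14894 genes that passed a filter on low values, and the quasi-likelihood test of edgeR with Benjamini-Hochberg adjustment over all of them. A gene is said to rise or fall where its adjusted p was under 0.05. All 9 genes passed the filter of over 0.5 CPM in 2 libraries, but Cyp1a1 passed it through 3 libraries at 50 µM and none elsewhere. The filter thus favoured a difference for Cyp1a1, and its call supports nothing by itself. At 50 µM against vehicle, 13.5% of all genes changed in either direction. At 10 µM, 0.410% of all genes changed in either direction. The median log2 fold change over all genes was -0.01 at 10 µM and 0.01 at 50 µM. The 2 comparisons with vehicle share the vehicle libraries, and both comparisons of 50 µM share the 50 µM libraries.

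**Figure D1:**
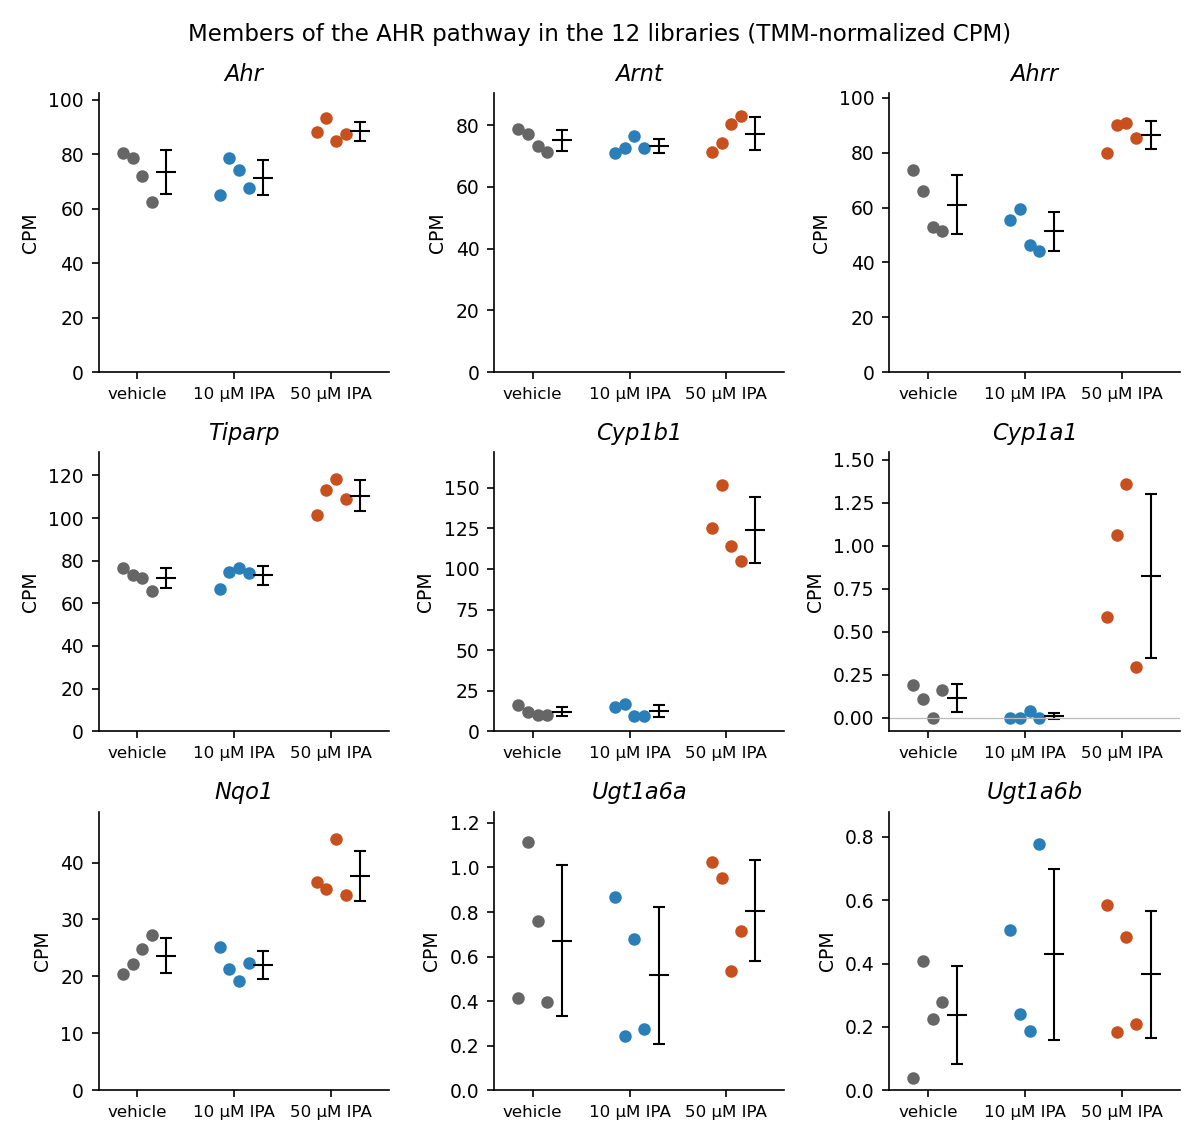
TMM-scaled CPM (y axis, from 0 for 8 genes, slightly below 0 for Cyp1a1) of the 9 genes in each of the 12 libraries, grouped on the x axis as vehicle, 10 µM and 50 µM IPA, with the mean and SD of the 4 libraries as a bar beside each group. Cyp1b1 lies between 9.21 and 16.7 CPM in the 8 vehicle and 10 µM libraries and between 105 and 152 CPM in the 4 at 50 µM.

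The receptor itself was considered first. Ahr (ENSMUSG00000019256, GRCm38 chromosome 12, 35497974 to 35535038, minus strand) stood at 80.4, 78.5, 72.0 and 62.4 CPM in vehicle replicates 1 to 4, at 64.9, 78.7, 74.3 and 67.6 CPM at 10 µM, and at 88.1, 93.1, 84.8 and 87.2 CPM at 50 µM. All 4 libraries at 50 µM lay above every vehicle and every 10 µM library, whereas the vehicle and 10 µM libraries overlapped. Non-overlap of this kind and direction was found for 9.45% of all genes against vehicle and for 9.43% against 10 µM. The log2 fold change of Ahr was 0.28 ± 0.08 (SE) at 50 µM against vehicle (edgeR, adjusted p = 0.0458), a value close to the threshold. When each library was left out in turn, Ahr passed in 1 of 8 fits, the one without vehicle replicate 2 (edgeR, adjusted p = 0.0454). In the other 7 fits the adjusted p of edgeR ran up to 0.150, the value without 50 µM replicate 2. The rise against 10 µM was firmer, at 0.31 ± 0.07 on the log2 scale (edgeR, adjusted p = 0.00848), and passed in all 8 fits that left a library out.

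Arnt (ENSMUSG00000015522, chromosome 3, 95434388 to 95497240, plus strand), which encodes the nuclear partner of AHR and of the hypoxia-inducible factors, was at 71.3 to 78.8 CPM in vehicle, 71.1 to 76.5 CPM at 10 µM and 71.4 to 82.9 CPM at 50 µM. These ranges overlapped in all 3 comparisons. Its log2 fold change was 0.05 at 50 µM against vehicle (edgeR, adjusted p = 0.727), with a 95% interval of -0.11 to 0.21, so a change of the size seen for Tiparp or Ahrr lay outside the interval.

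The chaperones of the cytoplasmic complex are encoded by Hsp90ab1, Hsp90aa1 and Ptges3, the gene of p23. With Ahr, Arnt, Ahrr and the second ARNT gene, Arnt2, they formed a list of 7 genes, all tested. Of these, 2 rose at 50 µM against vehicle, Ahr and Ahrr, and none fell, beside 7.00% and 6.50% of all genes. Both are among the 9 genes counted above, and the call of Ahr was close to the threshold. None of the genes new to this list passed. Arnt2, tested only through its 50 µM libraries, was among those (edgeR, adjusted p = 0.107). The median over the 7 genes was 0.11 on the log2 scale. Hsp90ab1, the most abundant, stood at 2321 to 2562 CPM in vehicle and 2583 to 2702 CPM at 50 µM, without overlap, and did not pass the test (edgeR, log2 fold change 0.11, adjusted p = 0.305). Hsp90aa1 had a log2 fold change of -0.10 (edgeR, adjusted p = 0.403) and Ptges3 one of -0.09 (edgeR, adjusted p = 0.489). At 10 µM none of the 7 genes passed, and only 0.410% of all genes did.

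Ahrr and Tiparp encode the 2 restraints on the receptor. Ahrr (ENSMUSG00000021575, chromosome 13, 74211118 to 74292331, minus strand), the AHR repressor, competes for ARNT and for the DNA elements. It stood at 73.8, 66.2, 52.8 and 51.5 CPM in vehicle, at 55.5, 59.4, 46.3 and 44.3 CPM at 10 µM, and at 79.9, 90.3, 90.9 and 85.3 CPM at 50 µM. The 4 libraries at 50 µM lay above all others, and the vehicle group was the most spread, with an SD of 10.8 CPM. The log2 fold change was 0.51 ± 0.11 (SE) at 50 µM against vehicle (edgeR, adjusted p = 0.00770) and 0.76 ± 0.09 against 10 µM (edgeR, adjusted p = 4.00e-05). At 10 µM the mean was 0.840 times that of vehicle, with overlapping libraries and a log2 fold change of -0.25 ± 0.13 (edgeR, adjusted p = 0.639).

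Tiparp (ENSMUSG00000034640, chromosome 3, 65528410 to 65555518, plus strand) encodes a mono-ADP-ribosyltransferase that marks AHR for loss. It stood at 76.5, 73.4, 72.0 and 65.7 CPM in vehicle, at 66.9, 74.8, 76.5 and 74.1 CPM at 10 µM, and at 101, 113, 118 and 109 CPM at 50 µM. Vehicle and 10 µM covered nearly the same range, and every library at 50 µM was higher. Its log2 fold change was 0.63 ± 0.08 (SE) against vehicle (edgeR, adjusted p = 0.000168) and 0.60 ± 0.07 against 10 µM (edgeR, adjusted p = 3.36e-05). An antisense gene, 4931440P22Rik, overlaps Tiparp and held 583 counts over the 12 libraries. Tiparp had 7262 counts over the 4 vehicle libraries. Whether strand was used in the counting was not given, so reads of both genes may not be told apart. The part of the antisense gene in the rise of Tiparp was not tested.

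Among the target genes, Cyp1b1 (ENSMUSG00000024087, chromosome 17, 79701537 to 79715061, minus strand) had the highest fitted log2 fold change of the 9 against vehicle, with an interval inside the wider one of Cyp1a1. Its levels were 15.8, 12.1, 10.0 and 9.93 CPM in vehicle, 14.8, 16.7, 9.21 and 9.66 CPM at 10 µM, and 125, 152, 114 and 105 CPM at 50 µM. The lowest library at 50 µM was thus well above the highest of the other 8. The log2 fold change against vehicle was 3.38 ± 0.16 (SE), with a 95% interval of 3.04 to 3.72 (edgeR, adjusted p = 7.42e-08), and that against 10 µM was 3.31 ± 0.17 (edgeR, adjusted p = 7.21e-09). By p-value Cyp1b1 ranked 2 of 14894 genes against vehicle and 4 against 10 µM, and by size of the rise 11 and 7. A rise with a log2 fold change over 1 and an adjusted p under 0.05 was found for 1.71% of all genes against vehicle and 1.28% against 10 µM. At 10 µM its log2 fold change was 0.07 (edgeR, adjusted p = 0.967), with a 95% interval of -0.39 to 0.53, which leaves out a change of the size measured at 50 µM.

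Cyp1a1 (ENSMUSG00000032315, chromosome 9, 57687928 to 57703824, plus strand) encodes the cytochrome P450 most often used as a readout of AHR. It was counted 5, 3, 0 and 4 times in the vehicle libraries, 0, 0, 1 and 0 times at 10 µM, and 12, 29, 28 and 7 times at 50 µM. A library at 0 allows up to 3 counts, or 0.109 to 0.145 CPM in the 4 libraries concerned. Every library at 50 µM was above every other one, and the summed counts were 12, 1 and 76. The ratio of these sums per total count was 6.93 for 50 µM over vehicle, with an exact 95% interval of 3.74 to 14.0, and 0.0869 for 10 µM over vehicle, with an interval of 0.00203 to 0.587. These intervals cover counting error only. The ratio of 50 µM over 10 µM rested on 1 count in the denominator and was 79.7, with an interval of 13.9 to 3189.

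The quasi-likelihood test of edgeR gave Cyp1a1 an adjusted p of 0.0177 at 50 µM against vehicle and of 0.000544 against 10 µM. The first call was lost without 50 µM replicate 2 (edgeR, adjusted p = 0.0574) and without replicate 3 (edgeR, adjusted p = 0.0586), the 2 libraries with the most counts. At 10 µM the lower count did not pass (edgeR, adjusted p = 0.475, unadjusted p = 0.0300). Cyp1a1 was the only 1 of the 9 genes with an unadjusted p under 0.05 in that comparison, where 8.78% of all genes had one. DESeq2 and limma-voom also called 0 of the 9 at 10 µM, and called 1.68% and 0.423% of all genes.

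Cyp1a1 and Cyp1b1, which AHR is known to induce together, therefore stood at very different levels at 50 µM. Per kilobase of exon, Cyp1b1 reached 21.3 ± 3.5 CPM (SD, n = 4) and Cyp1a1 0.296 ± 0.171 CPM. In the vehicle group the same levels were 2.05 ± 0.47 CPM and 0.0412 ± 0.0298 CPM. Cyp1a2, the neighbour of Cyp1a1 in the family, had 0 counts in all 12 libraries.

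Nqo1 (ENSMUSG00000003849, chromosome 8, 107388225 to 107403206, minus strand) encodes a quinone reductase that is a target of AHR and of NRF2, the regulator of the oxidative stress response. Its levels were 20.3, 22.2, 24.8 and 27.3 CPM in vehicle, 25.1, 21.3, 19.3 and 22.4 CPM at 10 µM, and 36.7, 35.4, 44.1 and 34.4 CPM at 50 µM. Again the 4 libraries at 50 µM lay above the other 8. The log2 fold change was 0.68 ± 0.11 (SE) against vehicle (edgeR, adjusted p = 0.00141) and 0.77 ± 0.10 against 10 µM (edgeR, adjusted p = 8.90e-05).

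Since Nqo1 belongs to both programmes, 13 known NRF2 targets were read beside it. At 50 µM against vehicle 5 of the 13 rose, Nqo1, Osgin1, Prdx1, Ftl1 and Fth1, and 1 fell, G6pdx, set against 7.00% and 6.50% over all genes. Their median on the log2 scale was 0.07, against 0.01 for all genes. Osgin1, which encodes a protein induced by oxidative stress, had a log2 fold change of 0.76 ± 0.09 (edgeR, adjusted p = 0.000175), near that of Nqo1. Hmox1, the heme oxygenase gene, was the only 1 of the 13 called at 10 µM, where 0.410% of all genes were. It rose there from 186 ± 31 to 278 ± 19 CPM (edgeR, log2 fold change 0.58, adjusted p = 0.0460), and at 50 µM it was at 185 ± 11 CPM. Against 10 µM, Nqo1, Osgin1, Ftl1 and Gsr rose and Hmox1 fell, where 7.52% of all genes rose and 7.85% fell. Nfe2l2, the gene of NRF2 itself and a known AHR target, fell at 50 µM from 346 ± 14 to 280 ± 12 CPM (edgeR, log2 fold change -0.30, adjusted p = 0.00883).

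Ugt1a6a (ENSMUSG00000054545, chromosome 1, 88134809 to 88218997, plus strand) and Ugt1a6b (ENSMUSG00000090145, chromosome 1, 88103252 to 88219003, plus strand) encode glucuronidating enzymes and had few counts. Ugt1a6a was counted 11, 30, 17 and 10 times in vehicle, 24, 5, 18 and 6 times at 10 µM, and 21, 26, 11 and 17 times at 50 µM. Ugt1a6b was counted 1, 11, 5 and 7 times in vehicle, 14, 5, 5 and 17 times at 10 µM, and 12, 5, 10 and 5 times at 50 µM. The groups overlapped for both genes in all comparisons. At 50 µM against vehicle their log2 fold changes had 95% intervals of -0.68 to 1.23 and -0.82 to 2.01, so a rise of the size measured for Nqo1 lay within both intervals.

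Both genes share exons with the other genes of the Ugt1a locus, and only 2142 of the 4312 exon bases of Ugt1a6a and 938 of the 2382 of Ugt1a6b belong to no other gene. Their counts are therefore uncertain, and few counts do not show that the genes were silent. The gene of the locus with nearly all of its counts was Ugt1a7c, at 44.4 ± 4.0, 46.9 ± 4.5 and 48.1 ± 2.7 CPM in the 3 groups. It is drawn to base 88220002, past the ends of Ugt1a6a and Ugt1a6b, so reads there could not be counted for either. Whether transcripts of other genes of the locus added to its counts was not tested. None of the 3 locus genes tested passed in any comparison.

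**Figure D2:**
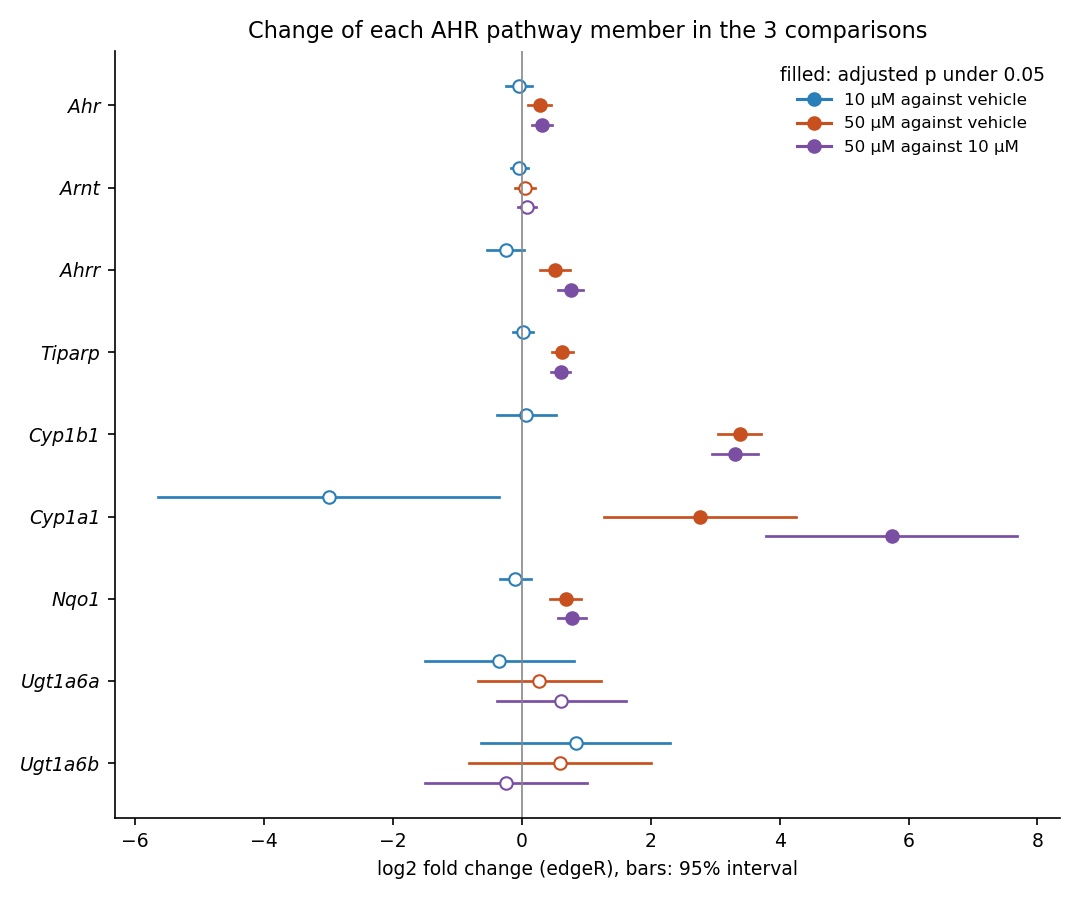
Log2 fold change of each of the 9 genes (x axis, y axis by gene) in the 3 comparisons, with bars for the 95% interval of the edgeR fit and filled points for an adjusted p under 0.05. The 6 genes with filled points in both comparisons of 50 µM are Ahr, Ahrr, Tiparp, Cyp1b1, Cyp1a1 and Nqo1, and no point of 10 µM against vehicle is filled.

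Against 10 µM, the same 6 genes rose at 50 µM and none fell, where 7.52% of all genes rose, 7.85% fell and 15.4% changed in either direction. The dose of 50 µM was thus compared with 10 µM directly, and 6 of the 9 genes differed between the doses by the test itself. Without Cyp1a1 the count was 5 of 8. Arnt had a log2 fold change of 0.08 (edgeR, adjusted p = 0.474), Ugt1a6a of 0.61 (edgeR, adjusted p = 0.427) and Ugt1a6b of -0.25, with a 95% interval of -1.51 to 1.01.

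The order of the genes per kilobase of exon changed between the groups. In vehicle, Tiparp was highest at 16.5 CPM per kilobase and Nqo1 next at 15.2, with overlapping libraries, followed by Ahr at 11.9, Arnt at 9.38, Ahrr at 6.47 and Cyp1b1 at 2.05, each apart from the one before. Ugt1a6a at 0.156, Ugt1a6b at 0.0995 and Cyp1a1 at 0.0412 came last, each overlapping its neighbour. At 10 µM the first 6 places were the same, with Nqo1 now overlapping Ahr. At 50 µM, Cyp1b1 had moved from place 6 to 3, at 21.3 CPM per kilobase, and overlapped Nqo1 at 24.2, which overlapped Tiparp at 25.3. Ahr at 14.3 came next, and Arnt at 9.64 and Ahrr at 9.17 overlapped, whereas in the other groups Arnt had been above Ahrr in every library.

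**Figure D3:**
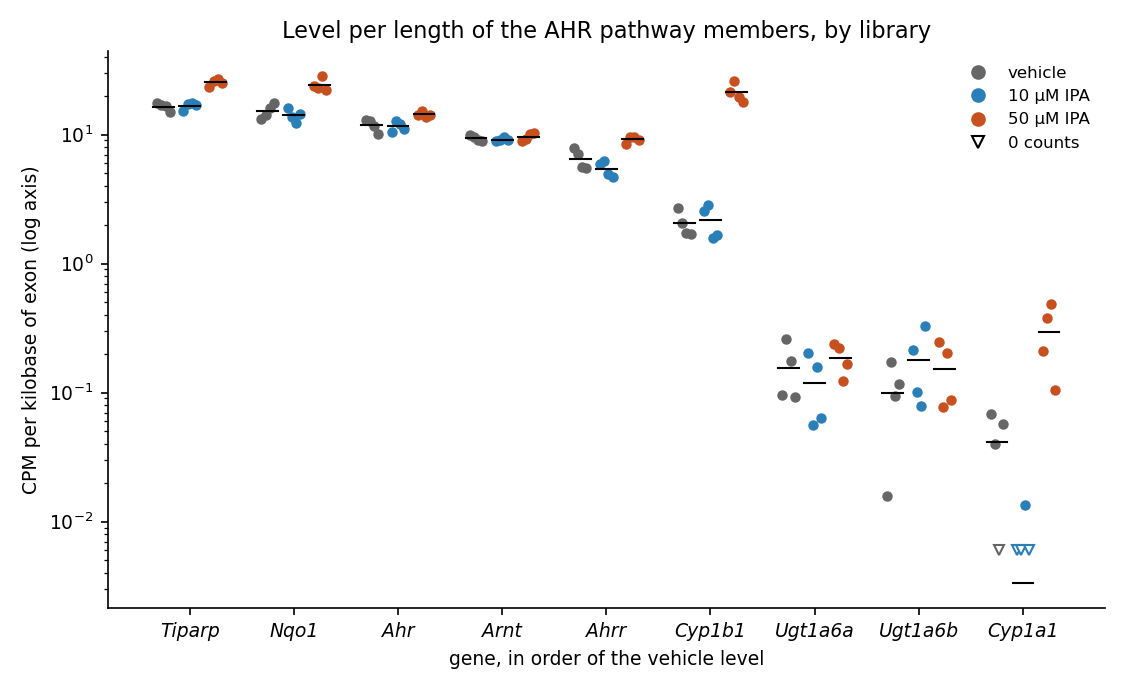
CPM per kilobase of exon (y axis, log scale) of the 9 genes in each library, ordered along the x axis by the vehicle mean, with points coloured by group, a bar for the group mean and open triangles for libraries with 0 counts. Cyp1b1 moves from a vehicle mean of 2.05 to 21.3 at 50 µM, whereas Ugt1a6a, Ugt1a6b and Cyp1a1 stay below 1 in every library.

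The wider set of drug metabolism genes under AHR, a list of 9 with 6 tested, held 4 that rose at 50 µM against vehicle, Cyp1b1, Cyp1a1, Nqo1 and Cyp2s1, and none that fell, where 7.00% of all genes rose. Without Cyp1a1, for which the filter favoured a difference, 3 of 5 rose, and Cyp2s1 was the 1 gene among them not already described above. Cyp2s1 encodes a further cytochrome P450 of low abundance. It was counted 8, 24, 8 and 14 times in vehicle, 40, 32, 12 and 29 times at 10 µM, and 33, 74, 16 and 28 times at 50 µM. Its groups overlapped in every comparison, and its log2 fold change was 1.58 ± 0.46 against vehicle (edgeR, adjusted p = 0.0381) and 0.42 ± 0.42 against 10 µM (edgeR, adjusted p = 0.558). Gsta1, like Cyp1a2, had 0 counts in every library, and Aldh3a1, with at most 13 counts in a library, was not tested.

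Of 16 immune and growth factor genes linked to AHR, 14 were tested, and at 50 µM against vehicle 4 rose and 5 fell, while 7.00% and 6.50% of all genes did. Their log2 fold changes had a median of 0.13. The 4 were Serpinb2, which encodes a protease inhibitor of activated macrophages, Socs2, a brake on cytokine signalling, Irf4, a factor of dendritic and B cells, and Scin, an actin-severing protein. Serpinb2 stood at 199, 189, 179 and 186 CPM in vehicle, 247, 249, 225 and 225 CPM at 10 µM, and 429, 451, 555 and 423 CPM at 50 µM. Its 3 groups did not overlap, and it rose by 1.31 ± 0.09 on the log2 scale at 50 µM (edgeR, adjusted p = 2.22e-06). Socs2 rose from 72.6 ± 5.5 to 124 ± 9 CPM (edgeR, log2 fold change 0.78, adjusted p = 4.50e-05).

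The 5 genes that fell were Ptgs2, the inducible cyclooxygenase, Il1b, the interleukin-1β gene, Ereg, the growth factor epiregulin, Prdm1, a differentiation factor, and Nfe2l2. Il1b went from 261 ± 47 to 142 ± 15 CPM (edgeR, log2 fold change -0.87, adjusted p = 0.000448). Ereg was counted 182 times over the vehicle libraries and 23 times over those at 50 µM (edgeR, log2 fold change -2.77, adjusted p = 0.00728). Il22, which encodes a cytokine of barrier defence, rose against 10 µM, from 10 to 75 summed counts (edgeR, log2 fold change 2.90, adjusted p = 0.00886), and was counted 17 times in vehicle. Like Cyp1a1, it passed the filter on low values through libraries at 50 µM alone, which favoured a difference. Against vehicle Il22 did not pass the test (edgeR, adjusted p = 0.0507). The 4 genes that rose and the 5 that fell against vehicle did so against 10 µM too, and there Areg, the growth factor amphiregulin, fell as well, with overlapping libraries (edgeR, log2 fold change -1.41, adjusted p = 0.0330). None of the 14 genes passed at 10 µM, where only 0.410% of all genes did.

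Genes around the receptor were also read, to be set against 7.00% of all genes higher and 6.50% lower at 50 µM than in vehicle, and 7.52% and 7.85% at 50 µM than at 10 µM. Kmo and Kynu encode enzymes that act on kynurenine, a tryptophan product that can bind AHR, and of 8 genes of ligand sources, 4 of them tested, Kmo rose at 50 µM from 52.5 ± 4.7 to 81.6 ± 11.7 CPM (edgeR, log2 fold change 0.65, adjusted p = 0.00142) and Kynu fell (edgeR, log2 fold change -0.41, adjusted p = 0.0362). Of 8 other genes whose proteins pair with ARNT or its relatives, 4 were tested and 1 rose, Hif1a, the hypoxia-inducible factor, from 255 ± 10 to 376 ± 14 CPM (edgeR, log2 fold change 0.57, adjusted p = 0.000102). Of 10 hypoxia targets, none rose and 4 fell at 50 µM against vehicle, Slc2a1, Ankrd37 and, with overlapping libraries, Egln3 and Ndrg1. The median of the 10 on the log2 scale was -0.33. Against 10 µM, these 4 fell with Pgk1, Ldha and Bnip3, and Car9 rose. Hif3a, another partner of ARNT, fell against 10 µM with overlapping libraries (edgeR, log2 fold change -2.61, adjusted p = 0.00545). Nr1i2, the gene of PXR, a receptor known to bind IPA, had 0 counts in all libraries of vehicle and 50 µM, and of the 2 genes tested in its list of 5, Abcb1b fell (edgeR, log2 fold change -0.57, adjusted p = 0.0333).

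**Figure D4:**
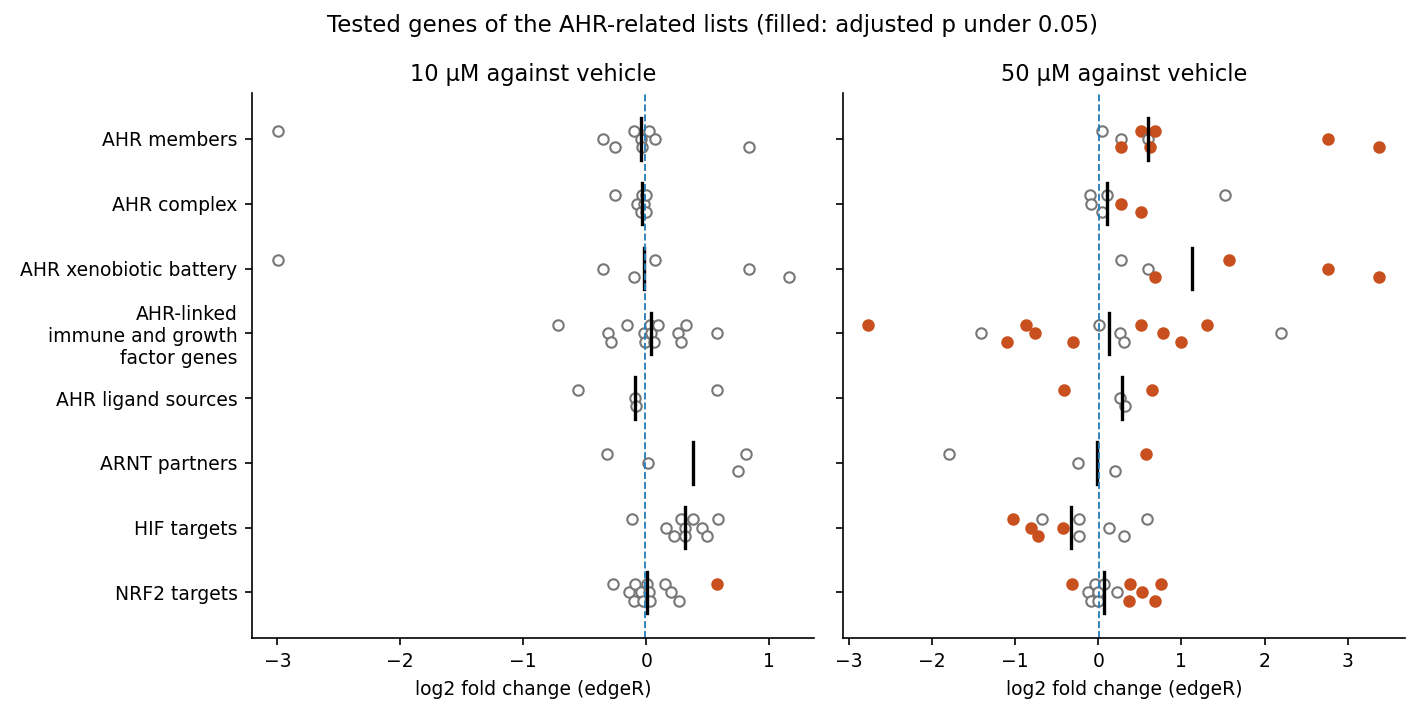
Log2 fold change (x axis) of the tested genes of 8 lists (y axis), for 10 µM (left) and 50 µM (right) against vehicle, with filled points for an adjusted p under 0.05 by edgeR, a black bar for the list's median and a dashed line at the median of all genes. The panels have different x ranges. In the right panel the xenobiotic battery has its filled points to the right of 0 and the hypoxia targets theirs to the left, and the immune and growth factor list has them on both sides.

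Genes with the pattern most like that of 3 members were looked for by the root mean square difference of centred log2 CPM over the 12 libraries, among 14894 genes. For Cyp1b1, whose own root mean square was 1.58, they were Hic1 with a difference of 0.444, Slc7a3 with 0.451 and Cox6a2 with 0.568. Hic1 averaged 2.23 CPM in vehicle, 3.80 at 10 µM and 25.8 at 50 µM. In the same order Slc7a3 averaged 0.202, 0.218 and 5.30 CPM, and Cox6a2 0.579, 0.464 and 6.58 CPM. Outside 50 µM both were near or below the 0.5 CPM of the filter, so their likeness rests mostly on the 50 µM libraries. For Ahrr, at 0.357, they were Ppbp with 0.144, Ikzf3 with 0.145 and Il21r with 0.151. For Ahr, at 0.174, they were Pik3cd with 0.0687, Ddhd1 with 0.0704 and Ighmbp2 with 0.0737.

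Markers of the cell types in the culture moved between the groups as well, and fewer cells of a type cannot be told apart from less RNA per cell in these libraries. The shares of all genes called, 7.00% higher and 6.50% lower against vehicle, are the background of the marker counts. At 50 µM against vehicle, 4 of 8 neutrophil markers fell, with a summed level of 19116 to 26900.0 CPM in vehicle and 13660.2 to 19130.1 CPM at 50 µM, and 3 of 5 monocyte markers fell, with 2532 to 3227 CPM and 2212 to 2951 CPM. All 5 B cell markers rose, from a summed 18.3 to 25.3 CPM in vehicle to 36.5 to 56.6 CPM at 50 µM. Of 7 dendritic cell markers 4 rose, with 85.7 to 98.3 CPM and 106 to 137 CPM. Most of that sum was Ccr7, with means of 68.3 and 90.0 CPM. The log2 fold changes of the dendritic cell list ran from -0.97 to 1.34. Of 8 macrophage markers 2 rose and 2 fell, with 813 to 988 CPM and 1022 to 1070.3 CPM, and of 6 mast cell and basophil markers 1, Gata2, rose, with 326 to 397 CPM and 364 to 472 CPM. No marker of these lists was at 0 in all libraries of a group. None of the tested T and NK cell, erythroid and stromal markers passed, and their lists summed to at most 6.20 CPM in any library, with Cxcl12 at 0 in vehicle and 50 µM, Col3a1 at 0 in 50 µM and Hbb-bs at 0 in vehicle. At 10 µM against vehicle, 3 of 8 macrophage markers and 1 of 5 monocyte markers, Fn1, rose, where 0.410% of all genes changed. At 50 µM against 10 µM, with 7.52% of all genes higher and 7.85% lower, all 5 B cell, 2 of 7 dendritic cell and 2 of 6 mast cell and basophil markers rose. All 5 monocyte and 3 of 8 neutrophil markers fell there, and of 8 macrophage markers 5 fell and 1 rose. The part of these shifts in the rise of the AHR genes was not tested.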

How the data were processed

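RNA of bone marrow cultures was sequenced from a stranded mRNA library kit. The authors used Atropos for trimming, hisat2 (2.2.1 in the submitters' processing notes) for alignment to mm10, and featureCounts (2.0.1) for counting over Ensembl genes. The deposited values are raw counts, checked to be whole. How the counting used strand was not given in the sources used here. Medium changes are described differently in the labels, which name day 3, and in the methods, which give shorter intervals. The title of the third 10 µM library repeats that of the second, and its library name was used.

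Groups were compared in pairs on their 8 libraries with edgeR 4.0.16 in R 4.3.3 (TMM, glmQLFit, glmQLFTest), without a block, after a filter of over 0.5 CPM in 2 of the 12 libraries, with Benjamini-Hochberg adjustment over 14894 genes and a threshold of 0.05. The tests were first tried on simulated counts. Levels are CPM scaled by TMM. Positions and exon lengths are those of GENCODE M21. Ratios of summed counts have exact 95% intervals. The alternatives were DESeq2 1.42.0, limma-voom (limma 3.58.1), other scalings and filters, all 12 libraries in one fit, a replicate block and leaving out each library.

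The 9 genes and all gene lists were chosen with earlier results of these data known. Named are the 9 genes, and the rule allowed, from the lists, genes past the threshold or else the 3 most abundant of a list, not all of which are given, and the 3 genes most like Ahr, Ahrr and Cyp1b1. Aldh3a1, Arnt2, Cyp1a2, Gsta1, Nr1i2, 4931440P22Rik and the markers at 0 are named outside that rule, after their values were seen. A further gene of the receptor complex is not reported here.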

Additional observations from a re-analysis of the deposited data

Results flagged for a closer look

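Cyp1a1 in replicate 3 of the 10 µM group stood at 0.0376 CPM, or 1 count, while the other 3 libraries of the group had 0 counts, so that it lay apart from the rest of its group by Dixon's test for 4 samples. With 27 groups of values checked for the 9 genes and 1 past the critical value, chance alone flags about 1 in 20. The 3 libraries tied at 0 fix the ratio of this test at 1.0 whatever the remaining value, so the flag follows from the ties. The rate of 1 in 20 does not cover such ties. A single count is within what a library at 0 allows.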

How the results depend on the processing

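Of the 9 genes, 0 passed at 10 µM under every alternative and every fit without a library. At 50 µM, 5 to 6 passed under the alternatives against either group, and 4 to 6 (against vehicle) or 6 (against 10 µM) when 1 library was left out. The 4 came without 50 µM replicate 2 and without replicate 3, where both Ahr and Cyp1a1 were lost. Ahr was also lost against vehicle with DESeq2's size factors (edgeR, adjusted p = 0.0546) and without a filter (edgeR, adjusted p = 0.0540). Requiring 10 counts in every library removed Cyp1a1, Ugt1a6a and Ugt1a6b from the test. Cyp1b1, Tiparp, Ahrr and Nqo1 passed against vehicle in all of these fits.

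Over all genes, the count called at 10 µM was 61, and it became 250 with DESeq2, 150 without a filter, 118 with all 12 libraries in the fit and 98 with an offset for exon length, an alternative chosen after seeing the data. Leaving out a library gave 4 (without 10 µM replicate 2) to 122 (without vehicle replicate 4). At 50 µM the 2010 calls against vehicle ranged from 1248 (without vehicle replicate 3) to 2689 (without vehicle replicate 4), with 1313 without 50 µM replicate 2, and the 2289 against 10 µM from 1604 to 2269. The cause was not tested.

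With a replicate block, 3 genes were called at 10 µM, 1830 at 50 µM against vehicle, and 0, 6 and 6 of the 9 genes in the 3 comparisons. Deviations of libraries with the same number had correlations of -0.34 to 0.19, and those with unlike numbers reached 0.35. Since unlike numbers correlated as strongly, this check cannot decide whether the numbers pair the libraries.

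Signs turned only where no call was made, when 1 library was left out. At 10 µM the log2 fold change of Ahr ran from -0.11 to 0.0100, with 0.0041 as the other positive value, that of Cyp1b1 from -0.0896 to 0.24, with -0.0101 and -0.0214 as the other negative ones, that of Tiparp from -0.0182 to 0.0635 and that of Ugt1a6a from -0.72 to 0.0134. Against 10 µM, Ugt1a6b ran from -0.57 to 0.18. Depth limits Cyp1a1, Ugt1a6a and Ugt1a6b, which had at most 30 counts in a library.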

Other observations

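Within the vehicle and the 10 µM groups, Cyp1b1 and Ahrr were both higher in replicates 1 and 2 than in replicates 3 and 4. For Cyp1b1 the values were 15.8 and 12.1 against 10.0 and 9.93 CPM in vehicle, and 14.8 and 16.7 against 9.21 and 9.66 CPM at 10 µM. At 50 µM, Cyp1b1 kept this split, with 125 and 152 against 114 and 105 CPM, whereas Ahrr did not. The libraries of different groups that share a number were not shown to be paired.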
